A study of Mus musculus with 6 samples.

Results

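Toll-like receptors are the receptors with which macrophages detect microbial products, and 10 genes of this system were examined in mouse bone marrow-derived macrophages with and without the chemokine CCL3. The genes were chosen by name as the Toll-like receptors Tlr1, Tlr2, Tlr4, Tlr6, Tlr7, Tlr8, Tlr9 and Tlr13 and the lipopolysaccharide (LPS) co-receptors Cd14 and Ly96. All 10 were found among the 54532 genes of the deposited table, and all 10 averaged 1 FPKM or more and were tested, as were 9218 genes in all. FPKM counts sequenced fragments relative to gene length and library size, so levels of different genes can be compared per length.

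The bone marrow came from the inbred mouse strain C57BL/6J, and no transgene or deletion is named for either group. Control macrophages (3 libraries) carried no added agent by their labels, and CCL3 macrophages (3 libraries) received recombinant CCL3 protein for 3 days once 7 days of culture had passed. The wording of the design can also be read to mean that CCL3 was already in the first culture. The sources used here do not give the dose, the handling of the controls during those 3 days, or the age and sex of the mice. They also do not tie the libraries to separate animals or cultures. Each p-value therefore measures only the spread between these samples, and that spread may be technical.

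As background, Toll-like receptors read their ligands through a horseshoe of leucine-rich repeats and signal through a cytoplasmic domain that recruits the adaptors Myd88 or Ticam1. Tlr4 at the cell surface binds LPS, the outer membrane lipid of Gram-negative bacteria, together with Ly96 (also called MD-2), and Cd14 hands LPS to that pair. Tlr2 pairs with Tlr1 or Tlr6 to bind bacterial lipopeptides, while Tlr7, Tlr8, Tlr9 and Tlr13 sit in endosomes and detect nucleic acids.

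Cd14 was the most abundant of the 10 transcripts and fell with CCL3, from 468 to 245 FPKM. Tlr8 rose with CCL3, from 3.87 to 11.5 FPKM. The other 8 genes did not pass the test, among them Tlr2, which was 1.91 times lower on average but overlapped between the groups, and Tlr7, whose CCL3 libraries lay above the control libraries by a narrow margin.

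The libraries were of similar depth, with 17399194 to 18609737 fragments recovered from the deposited FPKM and gene lengths, and the median tested gene had 381 to 595 fragments in a library. The divisor behind the FPKM was not the plain fragment total: fragments over divisor came to between 0.851 and 0.895 in control and between 1.05 and 1.20 with CCL3. Rescaling to TPM shifted the median log2 fold change over tested genes from 0.01 to -0.48, and plain fragment totals shifted it to -0.28. Libraries also differed by GC content: genes in the highest 20% of GC had a median log2 deviation of -0.302 to -0.117 in control libraries and of 0.102 to 0.373 in CCL3 libraries. The macrophage markers listed were present in all libraries, with Cd68 at 1227 and 1783 FPKM in control and CCL3, Csf1r at 809 and 711 and Adgre1 at 199 and 159. Of these 8 markers, Cd68 passed as higher (limma adjusted p = 0.0185) and 6 did not pass. Lyz2 passed as lower, from 20061 to 10558 FPKM (log2 fold change -0.91, limma adjusted p = 0.0339). Both calls were lost without control replicate 1 or 2. That of Lyz2 was also lost without CCL3 replicate 1, 2 or 3 (limma adjusted p up to 0.111) and after GC correction. That of Cd68 was also lost with TPM scaling, plain totals and gene length correction, and its sign turned with quantile normalization (-0.14). In these bulk samples, fewer cells of a type and less RNA per cell cannot be told apart.

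Cd14 (ENSMUSG00000051439) encodes a lipid-anchored surface protein without a signalling domain that passes LPS to Tlr4 and Ly96. Its level was 418, 514 and 473 FPKM in control replicates 1, 2 and 3 and 281, 262 and 193 FPKM in CCL3 replicates 1, 2 and 3. Every CCL3 library lay below every control library, and CCL3 replicate 3 was the lowest of the 6. Between 4394 and 17013 fragments stood behind each value, so counting error was small beside the spread between libraries. The mean fell from 468 ± 48.4 to 245 ± 46.6 FPKM (SD, n = 3 each), a control level 1.91 times the CCL3 level. The log2 fold change was -0.94 ± 0.18 (SE; 95% interval -1.36 to -0.53; limma, Benjamini-Hochberg adjusted p = 0.00783). Cd14 passed the test in all 17 alternative settings, with log2 fold changes from -1.48 to -0.78. In rank of FPKM among the 9218 tested genes it moved from 74 in control to 247 with CCL3, so it remained among the most abundant messenger RNAs. Under mm10 the deposited table places it on the minus strand of chromosome 18 at 36725074 to 36726736.

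Tlr4 (ENSMUSG00000039005, chr4:66827584-66930284, plus strand), the signalling receptor for LPS, was far less abundant than its co-receptor. It stood at 2.03, 2.35 and 1.86 FPKM in the control libraries and at 1.41, 3.40 and 1.86 FPKM in the CCL3 libraries, in the order of replicates 1, 2 and 3. The groups overlapped, with both the lowest and the highest of the 6 values in CCL3 libraries. The means were 2.08 ± 0.249 and 2.22 ± 1.04 FPKM (SD, n = 3), and the log2 fold change was 0.02 ± 0.22 with an interval of -0.50 to 0.54 (limma, adjusted p = 0.951). The sign was not stable, since it turned to -0.23 without CCL3 replicate 2, to -0.031 without control replicate 3, and to -0.43 and -0.22 with TPM and plain fragment totals.

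Ly96 (ENSMUSG00000025779, chr1:16688051-16709611, plus strand), the small secreted protein that forms the LPS pocket on Tlr4, had the lowest counts of the 10 genes. Its levels were 2.45, 2.19 and 0.963 FPKM in control and 1.21, 2.0 and 0.810 FPKM with CCL3. These rest on 52, 47 and 21 fragments in control and 20, 35 and 12 with CCL3, and the 95% counting interval of CCL3 replicate 3 ran from 0.419 to 1.42 FPKM. In both groups replicate 3 was the lowest library, and the groups overlapped. The log2 fold change of -0.28 ± 0.26 did not pass the test (interval -0.89 to 0.33, limma adjusted p = 0.429).

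**Figure D1:**
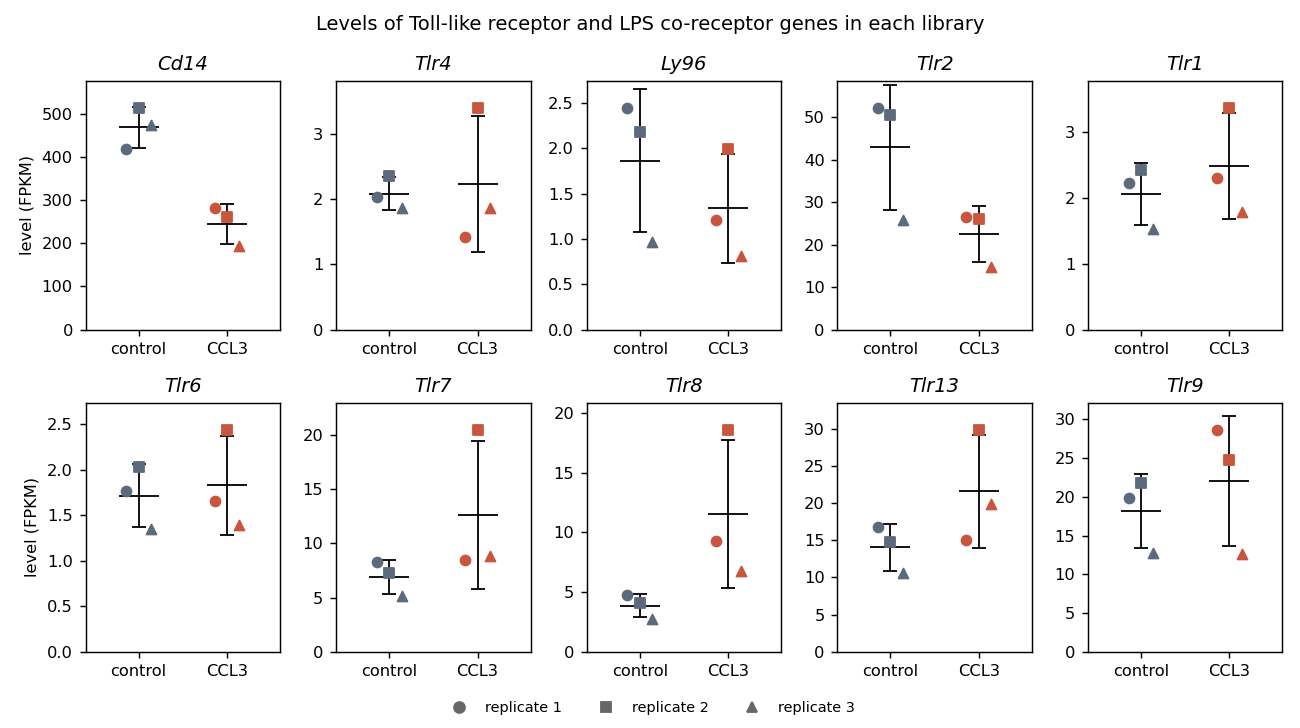
FPKM of each of the 10 genes in every library, 1 panel per gene with its own linear axis from 0, with libraries as points (shape marks the replicate), group means as horizontal lines and SD as error bars (n = 3). The 3 CCL3 points of Cd14 lie between 193 and 281 FPKM, below all control points, and those of Tlr8 lie between 6.77 and 18.6 FPKM, above all control points.

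Tlr2 (ENSMUSG00000027995, chr3:83836272-83841767, minus strand) is the common partner in lipopeptide recognition. The window upstream of its start is shown because Tlr2 is a textbook target of NF-kappaB, the factor that Toll-like receptors activate. RefSeq (GRCm38.p6) gives a promoter window of 300 bases, 250 before and 50 after its start site, and only the 91 bases upstream of the start of the deposited gene record are printed (chr3:83841768-83841858, minus strand, 5′ to 3′). The start of the RefSeq window's gene lies 159 bases inside that record. Capitals mark 2 overlapping matches to the kappaB-like letters GGGNNNNNCC.
Tlr2: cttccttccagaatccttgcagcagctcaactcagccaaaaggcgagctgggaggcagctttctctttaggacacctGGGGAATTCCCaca
On both strands together the whole 300-base window held 5 such matches in 2 overlapping clusters, with first bases 173 and 172 and then 9, 8 and 7 bases upstream of the RefSeq start. These letters are common: 50.8% of the 32851 RefSeq windows of that length held at least 1 match. A match is a description of the letters and not evidence of binding.

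The levels of Tlr2 were 52.3, 50.6 and 25.9 FPKM in control replicates 1, 2 and 3 and 26.6, 26.1 and 14.8 FPKM in CCL3 replicates 1, 2 and 3. Control replicates 1 and 2 lay well above every CCL3 library, whereas control replicate 3 lay just below CCL3 replicates 1 and 2, so the groups overlapped. The means were 42.9 ± 14.8 and 22.5 ± 6.66 FPKM (SD, n = 3), and the log2 fold change of -0.88 ± 0.31 missed the threshold (interval -1.61 to -0.16, limma adjusted p = 0.0632). Without control replicate 3 the log2 fold change was -1.20 and the adjusted p 0.0102. TPM scaling gave -1.43 (adjusted p = 0.00844) and plain totals -1.23 (adjusted p = 0.0190), while GC correction gave -0.67 (adjusted p = 0.139). No setting reversed its sign.

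Tlr1 (ENSMUSG00000044827, chr5:64924679-64933563) and Tlr6 (ENSMUSG00000051498, chr5:64952031-64960097) are neighbours on the minus strand, 18467 bases apart with 0 listed genes between them. Tlr1 joins Tlr2 to bind triacylated lipopeptides and Tlr6 joins it to bind diacylated ones. The coding sequences of the pair contain an identical run of 229 bases, which is shown because fragments from it cannot be assigned to either gene. In Tlr1 it lies at chr5:64925537-64925765, as bases 1468 to 1696 of 2385 coding bases, and in Tlr6 at chr5:64953828-64954056, as bases 1507 to 1735 of 2418 (GENCODE M21 transcripts on GRCm38, minus strand, 5′ to 3′). No capitals are used, since the whole run is shared.
Tlr1 and Tlr6: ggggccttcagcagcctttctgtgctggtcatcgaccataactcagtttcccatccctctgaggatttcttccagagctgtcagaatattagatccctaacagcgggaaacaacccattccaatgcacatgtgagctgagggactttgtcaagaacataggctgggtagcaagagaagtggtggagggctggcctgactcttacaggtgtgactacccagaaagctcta
Of all 50-base stretches of coding sequence, 19.4% in Tlr1 and 19.2% in Tlr6 occurred in the other gene. The longest identical run in the other 44 of the 45 pairs among the 10 genes was 16 bases. The sources used here do not say how fragments that match both genes were counted, so the levels of Tlr1 and Tlr6 are uncertain by the share of such fragments.

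Tlr1 was measured at 2.23, 2.43 and 1.52 FPKM in control and at 2.30, 3.38 and 1.79 FPKM with CCL3. Tlr6 was measured at 1.77, 2.03 and 1.34 FPKM in control and at 1.65, 2.44 and 1.39 FPKM with CCL3. For both genes replicate 2 was the highest and replicate 3 the lowest library in each group, and the groups overlapped. The log2 fold change was 0.18 ± 0.21 for Tlr1 (interval -0.30 to 0.65, limma adjusted p = 0.527) and 0.05 ± 0.18 for Tlr6 (interval -0.37 to 0.47, limma adjusted p = 0.852). Neither sign was stable: with TPM scaling the values were -0.23 for Tlr1 and -0.37 for Tlr6, and Tlr6 also turned to -0.10 without CCL3 replicate 2 and to -0.052 without control replicate 3.

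Among the endosomal receptors, Tlr8 (ENSMUSG00000040522, chrX:167242696-167264329, minus strand) was the single gene that rose. Its human counterpart detects single-stranded RNA and its breakdown products, and in mice it is the closest relative of Tlr7. The 250 bases before its start, which is the same in RefSeq and in the deposited table, are shown because Tlr8 is the called endosomal receptor (RefSeq, GRCm38.p6, chrX:167264330-167264579, minus strand, 5′ to 3′). Capitals mark 2 overlapping matches to TATAAA (1 on each strand, first bases 91 and 89 upstream of the start), 1 match to the ETS core GAGGAA on the opposite strand (77 upstream) and 1 to CCAAT (40 upstream).
Tlr8: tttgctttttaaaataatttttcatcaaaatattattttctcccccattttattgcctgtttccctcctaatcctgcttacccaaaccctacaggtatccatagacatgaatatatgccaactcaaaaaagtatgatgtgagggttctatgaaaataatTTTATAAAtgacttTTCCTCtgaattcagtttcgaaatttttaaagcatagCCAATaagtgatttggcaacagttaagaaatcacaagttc
The whole window with the 50 bases after the start was poor in G and C, at 32.3% GC with 1 CpG, against a median of 52.7% and 7 CpG over all 32851 windows. On either strand, TATAAA was present in 13.6% of all windows, GAGGAA in 28.3% and CCAAT in 37.4%. No match to the interferon response-like GAAANNGAAA or to the AP-1-like TGANTCA lay in the Tlr8 window, letters found in 3.44% and 7.81% of all windows.

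Tlr8 was measured at 4.74, 4.09 and 2.78 FPKM in control replicates 1, 2 and 3 and at 9.29, 18.6 and 6.77 FPKM in CCL3 replicates 1, 2 and 3. All CCL3 libraries lay above all control libraries, and CCL3 replicate 2 was the highest by a wide margin. The mean rose from 3.87 ± 0.997 to 11.5 ± 6.22 FPKM (SD, n = 3), a ratio of 2.98, on 213 to 1144 fragments in a library. The log2 fold change was 1.27 ± 0.33 (interval 0.52 to 2.03, limma adjusted p = 0.0219), and without CCL3 replicate 2 it was 0.90 (adjusted p = 0.0326). The gene passed in 13 of 17 alternative settings. It missed the threshold without control replicate 2 (1.32, adjusted p = 0.0584), with no filter on low genes (adjusted p = 0.0826), with TPM scaling (0.89, adjusted p = 0.0702) and with plain totals (0.98, adjusted p = 0.0516). After GC correction it was 1.31 (adjusted p = 0.0167).

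Tlr7 (ENSMUSG00000044583, chrX:167304929-167330558, minus strand), a receptor for single-stranded RNA and guanosine, lies 40599 bases from Tlr8 on the same strand with 0 listed genes between them. Its levels were 8.24, 7.25 and 5.14 FPKM in control and 8.45, 20.5 and 8.87 FPKM with CCL3. The groups did not overlap, but the highest control and the lowest CCL3 value were close, and CCL3 replicate 2 stood far above the other 5 libraries. The means were 6.88 ± 1.59 and 12.6 ± 6.83 FPKM (SD, n = 3), and the log2 fold change of 0.70 ± 0.32 did not pass the test (interval -0.04 to 1.44, limma adjusted p = 0.124). Without CCL3 replicate 2 it was 0.31 (adjusted p = 0.263), with TPM scaling 0.23 (adjusted p = 0.60) and with plain totals 0.38 (adjusted p = 0.381).

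Tlr13 (ENSMUSG00000033777, chrX:106143204-106160493, plus strand), which detects bacterial ribosomal RNA, was measured at 16.7, 14.8 and 10.6 FPKM in control and at 15.0, 29.9 and 19.9 FPKM with CCL3. The groups overlapped through CCL3 replicate 1, and CCL3 replicate 2 was again the highest. The means were 14.0 ± 3.15 and 21.6 ± 7.58 FPKM (SD, n = 3), and the log2 fold change was 0.56 ± 0.26 (interval -0.04 to 1.16, limma adjusted p = 0.130). TPM scaling gave 0.052 (adjusted p = 0.885), plain totals 0.22 (adjusted p = 0.530) and the fit without CCL3 replicate 2 0.31 (adjusted p = 0.330). GC correction brought it past the threshold at 0.73 (adjusted p = 0.0391), though not when CCL3 replicate 2 was also left out (0.54, adjusted p = 0.0976), an alternative chosen after the data were seen.

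Tlr9 (ENSMUSG00000045322, chr9:106222598-106226883, plus strand), the receptor for DNA with unmethylated CpG, was measured at 19.9, 21.8 and 12.8 FPKM in control and at 28.7, 24.8 and 12.6 FPKM with CCL3. Replicate 3 was the lowest library in each group and CCL3 replicate 3 the lowest of all 6, so the groups overlapped. The log2 fold change was 0.22 ± 0.31 (interval -0.50 to 0.94, limma adjusted p = 0.606). Its sign turned with GC correction (-0.11), TPM scaling (-0.30) and plain totals (-0.12). With 56.2% GC, Tlr9 had the highest GC content of the 10 genes, against 39.4% for Tlr4, 40.1% for Tlr8, 41.0% for Tlr7 and a median of 50.9% over tested genes.

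Counted together, 2 of the 10 genes passed the test, 1 higher and 1 lower with CCL3, where 32.4% of all tested genes passed in either direction, 18% higher and 14.5% lower. The groups did not overlap for 3 of the 10 (2 higher, 1 lower), where 48.6% of all tested genes were apart, 24.6% higher and 24% lower. Both counts are smaller shares than those over all genes, but they rest on only 10 genes and the difference was not tested. The median log2 fold change was 0.11 over the 10 genes and 0.01 over all tested genes. By role it was -0.28 over the 3 LPS receptor genes, 0.05 over the 3 lipopeptide receptor genes and 0.63 over the 4 nucleic acid receptor genes, of which 1, 0 and 1 passed in limma, respectively. The last of these medians was 0.31 without CCL3 replicate 2, 0.14 with TPM scaling and 0.30 with plain totals. Over all tested genes the median was 0.01 without CCL3 replicate 2, -0.48 with TPM scaling and -0.28 with plain totals. The role medians under these settings are to be read against those values. The LPS receptor median ranged from -0.54 without control replicate 3 to -0.11 without CCL3 replicate 3 and was -0.77 with TPM scaling. The lipopeptide receptor median changed sign, to -0.10 without CCL3 replicate 2, -0.052 without control replicate 3 and -0.37 with TPM scaling. Without control replicate 3, 3 of the 10 passed, where 3166 of all 9218 tested genes did. Without control replicate 2, 1 of the 10 passed, where 1152 of all 9218 did. With TPM scaling 0 passed as higher and 2 as lower in limma, where 5.5% and 43.2% of all genes did, and with plain totals 0 and 2, where 8.71% and 33.1% did. After GC correction 2 passed as higher and 1 as lower, where 13.1% and 13.2% of all genes did.

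**Figure D2:**
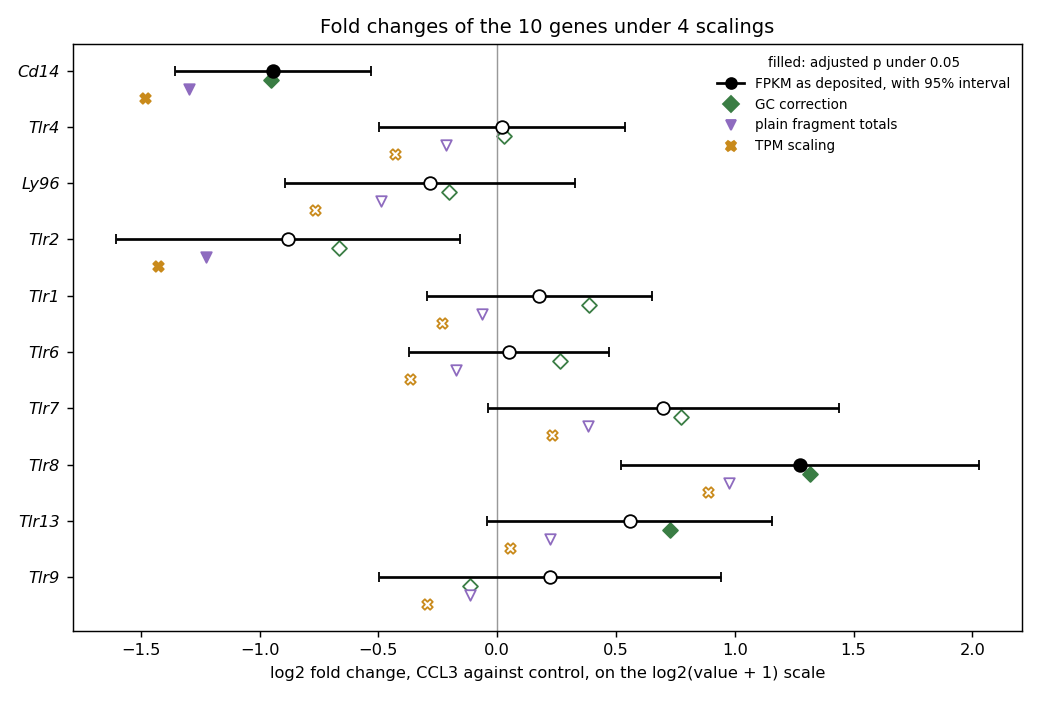
Log2 fold change of CCL3 against control for the 10 genes on the log2(FPKM + 1) scale, with the value as deposited and its 95% interval beside the values with GC correction, plain fragment totals and TPM scaling (filled symbols passed the test). Cd14 stays below 0 and Tlr8 above 0 under each of them, while Tlr1, Tlr4, Tlr6 and Tlr9 cross 0.

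The same libraries were often the highest or lowest of their group across the 10 genes, which bears on each of these values. How many of all tested genes show the same pattern was not counted, so it is not shown to be particular to this family. CCL3 replicate 2 was the highest CCL3 library for 7 of the 10 genes, and for 9 after GC correction. Control replicate 3 was the lowest control library for 9 of the 10, and for 8 after GC correction. The part of these 2 libraries' own differences in the fold changes was not tested beyond leaving each of them out.

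In control macrophages the order of mean levels per length was Cd14, Tlr2, Tlr9, Tlr13, Tlr7, Tlr8, Tlr4, Tlr1, Ly96 and Tlr6, from 468 to 1.71 FPKM. Cd14 and Tlr2, Tlr2 and Tlr9, Tlr13 and Tlr7, Tlr7 and Tlr8, and Tlr8 and Tlr4 were separated without overlap of their ranges. The ranges of Tlr9 and Tlr13 overlapped, although Tlr9 was higher within each of the 3 libraries, and Tlr4, Tlr1, Ly96 and Tlr6 were not separated from their neighbours in the order. With CCL3 the order was Cd14, Tlr2, Tlr9, Tlr13, Tlr7, Tlr8, Tlr1, Tlr4, Tlr6 and Ly96. From Tlr2 to Tlr8 all neighbours overlapped, with means of 22.5, 22, 21.6, 12.6 and 11.5 FPKM, and a gap then separated Tlr8 from Tlr1. In rank of FPKM among the tested genes Tlr8 moved from 6038 to 3510 and Tlr7 from 4644 to 3326, whereas Tlr2 moved from 1133 to 2277. The 3 genes whose values followed Tlr8 most closely over the 6 libraries were Setd2, Kidins220 and Iqgap2, with Pearson r of 0.986, 0.985 and 0.984 on the log2(FPKM + 1) scale, given as a description over libraries that share their groups and scaling.

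Ratios between genes of the same library do not depend on that library's divisor, and 11 such ratios were compared over the 6 libraries with an exact two-sided permutation test. They can still depend on GC content, by which the libraries differed between the groups, and no ratio was tested after GC correction. GC content differed within some pairs, such as Tlr9 and Tlr7 (56.2% and 41.0%) and Cd14 and Tlr4 (52.5% and 39.4%). With 3 libraries against 3 the smallest p this test allows is 0.1, so none could pass, and the smallest value after adjustment over the 11 pairs was 0.183. The Tlr8 to Tlr7 ratio was 0.575, 0.565 and 0.541 in control libraries and 1.10, 0.907 and 0.763 with CCL3. The control ratios were almost equal and all lay below the CCL3 ratios, a log2 difference of 0.71 ± 0.15 (SE, exact permutation p = 0.1). So per length, Tlr8 messenger RNA stood well below the Tlr7 level in every control library and close to or above it in CCL3 replicates 1 and 2. The Tlr13 to Tlr7 ratio was 2.03, 2.04 and 2.06 in control libraries and 1.77, 1.46 and 2.25 with CCL3, which overlapped (exact permutation p = 0.4).

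For the LPS receptor, the Cd14 to Tlr4 ratio was 206, 219 and 254 in control libraries and 199.6, 77.1 and 104 with CCL3. The groups did not overlap, but CCL3 replicate 1 lay next to the lowest control library, and the log2 difference was -0.95 ± 0.42 (exact permutation p = 0.1). The Ly96 to Tlr4 ratio ranged from 0.517 to 1.21 in control and from 0.435 to 0.857 with CCL3 and overlapped (exact permutation p = 0.4). The Tlr7 to Tlr4 ratio was 4.07, 3.08 and 2.76 in control libraries and 5.99, 6.03 and 4.76 with CCL3, apart between the groups, with a log2 difference of 0.77 ± 0.20 (exact permutation p = 0.1).

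For the lipopeptide receptors, the Tlr1 to Tlr2 ratio was 0.0426, 0.0480 and 0.0589 in control libraries and 0.0867, 0.129 and 0.121 with CCL3. Every library therefore held many more Tlr2 than Tlr1 transcripts per length, and the CCL3 ratios all lay above the control ratios, by 1.16 ± 0.22 on the log2 scale (exact permutation p = 0.1). The Tlr6 to Tlr2 ratio was apart in the same direction, by 0.98 ± 0.26 (exact permutation p = 0.1). The Tlr1 to Tlr6 ratio was 1.26, 1.20 and 1.13 in control libraries and 1.39, 1.39 and 1.29 with CCL3, a small difference of 0.18 ± 0.06 (exact permutation p = 0.1) that their shared sequence makes uncertain. The remaining ratios, Tlr9 to Tlr7, Tlr2 to Tlr4 and Cd14 to Ly96, overlapped between the groups, with exact permutation p of 0.4, 0.2 and 0.5. Since many of the 11 pairs share a gene, they are not independent of each other.

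**Figure D3:**
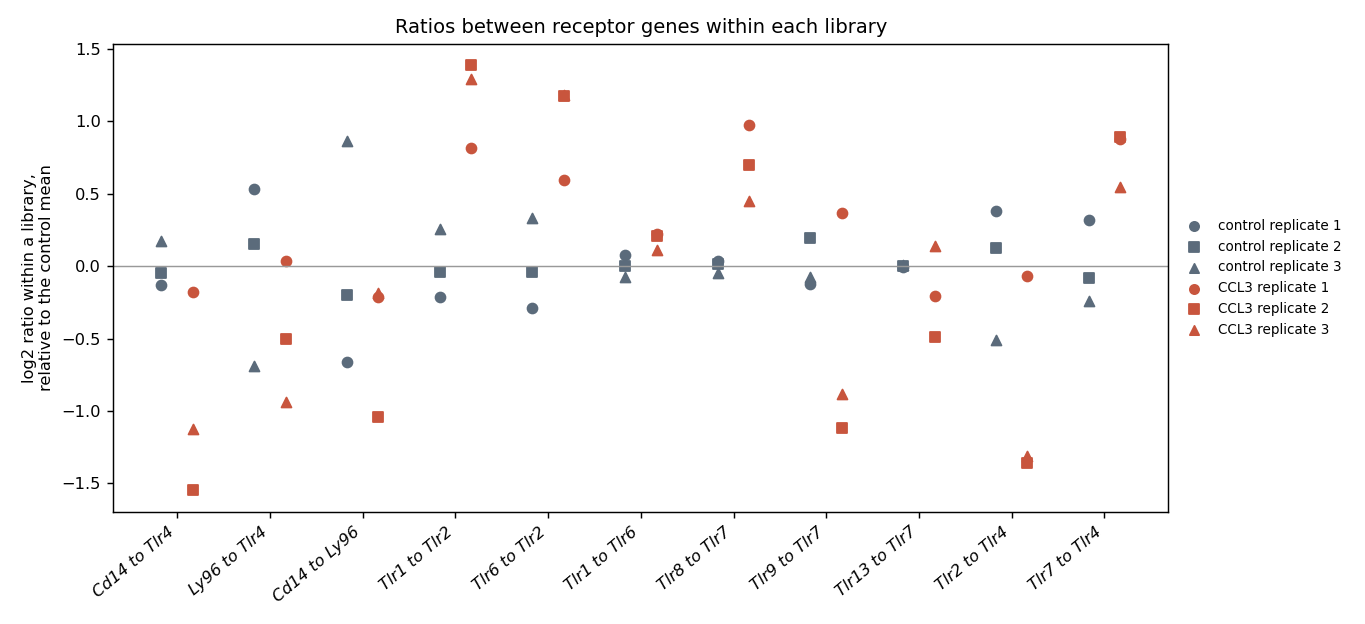
Log2 ratios of FPKM for the 11 pairs within each library, minus the mean of the 3 control libraries, with libraries as points (colour marks the group, shape the replicate). All CCL3 points of Tlr8 to Tlr7 lie above the control points, a mean log2 difference of 0.71, and the Tlr13 to Tlr7 ratio overlaps between the groups.

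The other genes of the pathway were read from lists of 86 genes, of which 64 were tested and 20 passed, 11 higher and 9 lower. That is 31.2% of those tested, near the 32.4% of all genes. Their median log2 fold change was -0.05. Of the 20, 6 passed in all 6 fits that left out 1 library (Ctsl, Tnf, Ccl5, Egr1, Cd36 and Hsp90b1), while 14 were lost without control replicate 2 and 11 without control replicate 1. Under 6 other scalings and corrections, 15 of the 20 kept their sign throughout, and 6 of the 20 passed in all of them.

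The remaining Toll-like receptors were low. Tlr3, the receptor for double-stranded RNA, was measured at 0.379, 0.374 and 0.512 FPKM in control and 0.391, 0.503 and 0.609 FPKM with CCL3, which overlapped. Tlr5, Tlr11 and Tlr12 lay lower still, and none of the 4 met the minimum of 1 FPKM for testing. Of the RP105 complex, a relative of the Tlr4 complex that dampens LPS signalling in macrophages, Cd180 rose from 21.6 ± 1.85 to 28.8 ± 2.15 FPKM (log2 fold change 0.40 ± 0.13, limma adjusted p = 0.0493). That call was lost without any 1 of control replicates 1 and 2 and CCL3 replicates 1, 2 and 3 (adjusted p up to 0.183), and its sign turned with TPM scaling (-0.12). Its partner Ly86 was at 18.1 ± 5.6 and 10.4 ± 3.09 FPKM and missed the threshold (-0.74 ± 0.27, limma adjusted p = 0.0706).

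Of 6 genes that deliver or sense LPS and lipopeptides beside these receptors, 5 were tested and 1 rose. This was Cd36, a scavenger receptor that also presents diacylated lipopeptides to Tlr2 with Tlr6. Cd36 was measured at 7.76, 4.42 and 3.53 FPKM in control and at 10.2, 21.9 and 19.9 FPKM with CCL3. The groups did not overlap, and the log2 fold change was 1.54 ± 0.33 (limma adjusted p = 0.0111). It passed without each library in turn and under all 6 other scalings and corrections.

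Of 10 genes for folding and transport of Toll-like receptors, 3 rose and 1 fell, with a median log2 fold change of -0.09 over all 10. Hsp90b1, the chaperone on which folding of most Toll-like receptors depends, rose from 13.5 ± 0.261 to 29.5 ± 8.88 FPKM (1.02 ± 0.22, limma adjusted p = 0.0123), a call lost with TPM scaling. Its co-chaperone Cnpy3 rose from 58.9 ± 3.50 to 93.7 ± 9.26 FPKM (0.66 ± 0.13, limma adjusted p = 0.0100), a call lost without control replicate 2 (adjusted p = 0.0605), with TPM scaling (0.13, adjusted p = 0.470) and with plain totals (0.31, adjusted p = 0.0733). Unc93b1, which escorts Tlr7, Tlr9 and Tlr13 to endosomes, was measured at 391, 400 and 304 FPKM in control and 566, 540 and 476 FPKM with CCL3. It rose by 0.54 ± 0.16 on the log2 scale (limma adjusted p = 0.0356), but the call held only when CCL3 replicate 3 was the library left out (adjusted p up to 0.0879 otherwise), and quantile normalization turned the sign (-0.11). Rab7b, a small GTPase that directs Tlr4 to lysosomes, fell from 23.9 ± 6.07 to 14.0 ± 1.31 FPKM (-0.71 ± 0.20, limma adjusted p = 0.0291), a call lost without control replicates 1 or 2 or CCL3 replicates 1 or 3 (adjusted p up to 0.107) and after GC correction (-0.49, adjusted p = 0.0934). The split depended on scaling, with 0 higher and 7 lower under TPM in limma, where 5.5% and 43.2% of all tested genes passed. With GC correction those shares were 13.1% and 13.2%. After GC correction the calls were Hsp90b1, higher, and Tmed7, lower (-0.48, adjusted p = 0.0482), a cargo receptor that carries Tlr4 from the endoplasmic reticulum, named after its values were seen; Cnpy3, Unc93b1 and Rab7b were not called there.

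Of 5 endosomal proteases that can cleave the nucleic acid-sensing receptors, 1 passed. Ctsl, cathepsin L, rose from 44.4 ± 3.06 to 87.7 ± 16 FPKM (0.95 ± 0.17, limma adjusted p = 0.00604). The call was lost with TPM scaling (0.43, adjusted p = 0.0517). The median log2 fold change of the 5 was 0.44. In limma 3 of them passed after GC correction, all higher, and 0 passed with TPM scaling. Of all tested genes, 13.1% passed as higher after GC correction, and 5.5% as higher and 43.2% as lower with TPM scaling.

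Of 25 adaptors, kinases and transcription factors next to the receptors, 22 were tested, and 3 rose and 3 fell. Myd88, the adaptor of nearly all Toll-like receptors, was measured at 30.7, 37.4 and 38.2 FPKM in control and at 46.4, 39.3 and 35.6 FPKM with CCL3, which overlapped (0.19 ± 0.15, limma adjusted p = 0.376). Tirap, which bridges Tlr2 and Tlr4 to Myd88, fell from 2.48 ± 0.617 to 1.18 ± 0.178 FPKM (-0.67 ± 0.17, limma adjusted p = 0.0199). Traf3, a ubiquitin ligase of the interferon branch, fell from 4.70 ± 0.788 to 2.33 ± 0.395 FPKM (-0.77 ± 0.16, limma adjusted p = 0.0114). Ikbkg, the regulatory subunit of the IkappaB kinase, fell by 0.51 ± 0.14 on the log2 scale (limma adjusted p = 0.0269). Irf3, the transcription factor of the Ticam1 branch, rose from 17 ± 2.54 to 28.9 ± 4.75 FPKM (0.73 ± 0.17, limma adjusted p = 0.0148). Ticam1 itself (0.49, adjusted p = 0.0295) and Irf5 (0.39, adjusted p = 0.0465) also passed in limma, both named after their values were seen, and both turned sign with TPM scaling, Irf5 also with quantile normalization. All 6 calls were lost without control replicate 2, with adjusted p up to 0.0565 for Traf3, 0.0727 for Irf3, 0.0950 for Tirap, 0.114 for Ikbkg, 0.106 for Ticam1 and 0.172 for Irf5 over the 6 fits that left out 1 library. Irf3 was also lost without control replicate 1, Tirap without CCL3 replicate 3 and Ikbkg without control replicate 1 or CCL3 replicates 1 or 2. Ticam1 held only without CCL3 replicate 3, and Irf5 in none of these fits. By scaling, Traf3 passed in all 6 other settings, while GC correction ended the other 5 calls, and TPM scaling and plain totals ended those of Irf3, Ticam1 and Irf5. Under TPM scaling the count was 0 higher and 10 lower, and after GC correction 0 higher and 1 lower, both in limma. Of all tested genes, 5.5% and 43.2% passed under TPM and 13.1% and 13.2% after GC correction, so the TPM count of lower genes is near that share.

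Of 14 negative regulators, 11 were tested, and 1 rose and 2 fell. Tollip, which binds and restrains Irak1, fell from 23.8 ± 0.948 to 14.6 ± 4.88 FPKM (-0.71 ± 0.21, limma adjusted p = 0.0348). Otulin, a deubiquitinase for linear chains, fell by 0.57 ± 0.17 on the log2 scale (limma adjusted p = 0.0354). Tnip1, a partner of the ubiquitin-editing enzyme Tnfaip3, rose by 0.46 ± 0.14 (limma adjusted p = 0.0404) and turned sign with TPM scaling. These 3 calls were lost without control replicate 1 and without control replicate 2 (adjusted p up to 0.132 when 1 library was left out). Tollip and Tnip1 were also lost without control replicate 3, Tollip and Otulin without CCL3 replicates 2 or 3, and Tnip1 without CCL3 replicates 1 or 2. Tollip was also lost after GC correction (adjusted p = 0.0678), and Tnip1 with TPM scaling, plain totals, quantile normalization, length correction and GC correction. Under TPM scaling the count was 0 higher and 5 lower, and after GC correction 0 higher and 1 lower, both in limma. Of all tested genes, 5.5% and 43.2% passed under TPM and 13.1% and 13.2% after GC correction, so the TPM count of lower genes is near that share. Nfkbia, the inhibitor of NF-kappaB and one of its first targets, was measured at 77.8, 90.7 and 75.1 FPKM in control and at 77.3, 68.6 and 51.7 FPKM with CCL3, which overlapped (-0.31 ± 0.18, limma adjusted p = 0.199).

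Of 20 genes that LPS is known to induce in macrophages, 9 reached 1 FPKM on average, and 1 rose and 3 fell, with a median of -0.43. Tnf, the cytokine tumour necrosis factor, was measured at 11.6, 14.0 and 17 FPKM in control and at 8.05, 6.04 and 3.45 FPKM with CCL3. The groups did not overlap, and it fell by 1.19 ± 0.26 on the log2 scale (limma adjusted p = 0.0130). Egr1, an immediate early transcription factor, fell from 2.63 ± 0.650 to 0.906 ± 0.179 FPKM (-0.92 ± 0.18, limma adjusted p = 0.00817). Acod1, the enzyme that makes itaconate, fell from 6.14 ± 2.53 to 2.67 ± 0.530 FPKM (-0.90 ± 0.28, limma adjusted p = 0.0432), a call that held only when control replicate 3 was the library left out (adjusted p up to 0.148 otherwise) and was lost with quantile normalization (adjusted p = 0.0750) and GC correction (-0.66, adjusted p = 0.107). The chemokine gene Ccl5 went the other way, from 5.06 ± 0.634 to 12.1 ± 2.34 FPKM (1.10 ± 0.17, limma adjusted p = 0.00448). Tnf, Egr1 and Ccl5 passed without each library in turn and under all 6 other scalings and corrections. In limma the count over the list was 1 higher and 6 lower with TPM scaling and 1 higher and 2 lower after GC correction. Of all tested genes, 5.5% and 43.2% passed with TPM scaling and 13.1% and 13.2% after GC correction. The labels name no LPS treatment, so these are levels in unstimulated or CCL3-treated cultures.

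**Figure D4:**
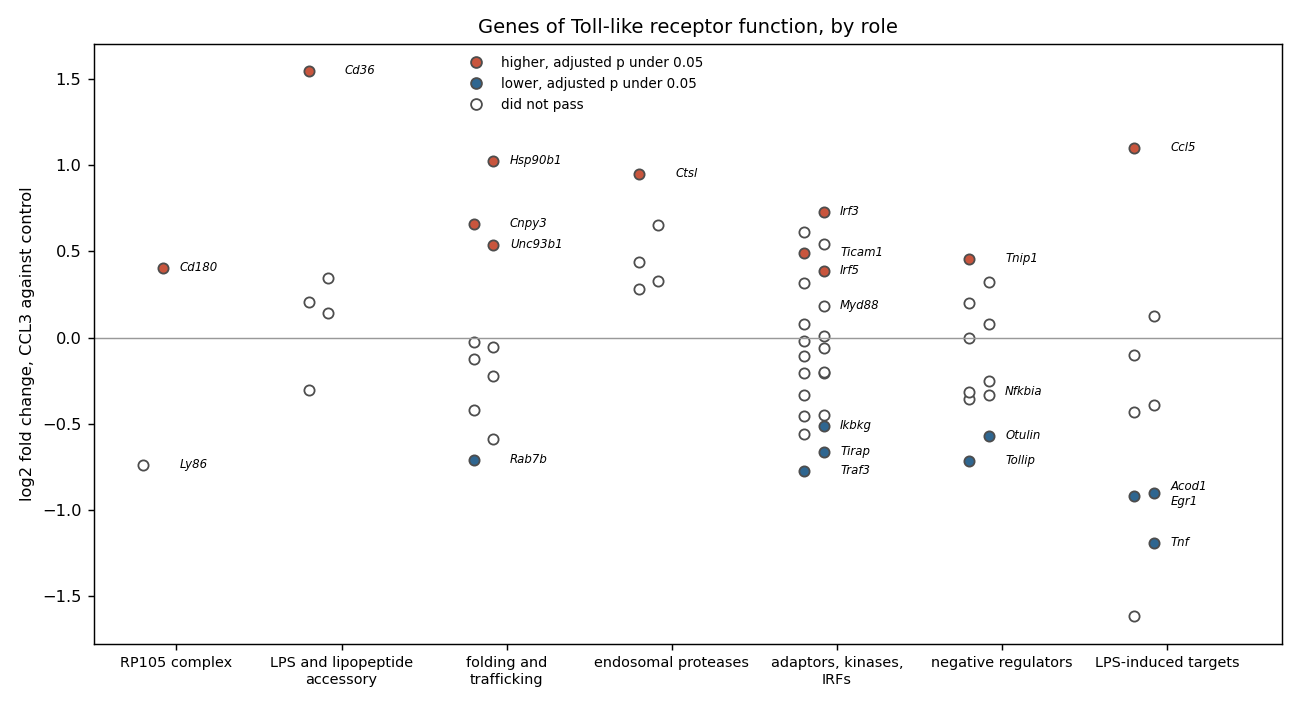
Log2 fold change of CCL3 against control on the log2(FPKM + 1) scale for the tested genes of the pathway lists, grouped by role, with genes past the threshold marked. Calls in both directions occur among the transport genes (3 higher, 1 lower), the adaptors (3 and 3), the negative regulators (1 and 2) and the LPS-induced targets (1 and 3).

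Markers of other cells that bone marrow cultures can hold differed between the groups in part. The dendritic, plasmacytoid dendritic and fibroblast sums lay apart between the groups, that of fibroblasts by a narrow margin. The monocyte, neutrophil, B cell, and T and natural killer cell sums overlapped. The summed dendritic cell markers came to 3.30 to 4.62 FPKM in control and 7.92 to 9.74 FPKM with CCL3, and all 3 tested of 8 (Ccr7, Batf3 and Fscn1) were higher in limma. Of these 3, Fscn1 was not called with TPM scaling, and neither Fscn1 nor Batf3 after GC correction. The Fscn1 call was also lost without control replicate 2 or CCL3 replicates 1 or 2 (limma adjusted p up to 0.0766). Cd209a, below the minimum for testing, went the other way, with 0.213, 0.810 and 0.532 FPKM in control and 0.0390, 0.0368 and 0 FPKM with CCL3, and Flt3, Zbtb46, Xcr1 and Clec9a were at or below 0.246 FPKM in every library. The plasmacytoid dendritic cell markers, of a cell rich in Tlr7 and Tlr9, came to 0.871 to 1.34 and 3.29 to 6.49 FPKM; nearly all of that was Cox6a2 (0.976 and 4.24 FPKM), 1 of 5 was tested, and Siglech was at or below 0.258 FPKM. The monocyte markers, of a cell rich in Cd14 in humans, came to 16.5 to 38.6 FPKM in control and 9.85 to 19.8 FPKM with CCL3, with 2 of 5 tested and Plac8 lower (1.68 and 0.499 FPKM, limma adjusted p = 0.0134, and 0.0600 without control replicate 2). Most of that sum was Spn (23.6 and 12.6 FPKM), which overlapped and was not called (limma adjusted p = 0.117). The neutrophil markers came to 18.2 to 37.4 and 29.1 to 50.8 FPKM, with 3 of 8 tested and Ly6g at 0 in all libraries. S100a8 was higher (9.22 and 22.9 FPKM, limma adjusted p = 0.0185), a call lost without control replicate 2 or CCL3 replicate 3. S100a9 (15.6 and 11.9 FPKM) and Ngp (2.74 and 3.26 FPKM) overlapped and were not called. Below the minimum for testing, Mpo (0.0602 and 0.474 FPKM) and Elane (0.177 and 0.832 FPKM) were apart and higher with CCL3. They had at most 30 fragments in a library, and Retnlg and Camp, also below the minimum, overlapped. The B cell markers came to 2.15 to 2.59 and 1.86 to 3.37 FPKM with Pax5 at 0, and the T and natural killer cell markers reached 0.113 FPKM at most with Cd8a and Ncr1 at 0. The fibroblast markers came to 2.22 to 4.26 and 4.59 to 7.61 FPKM, mostly Col1a1 and Col1a2, the 2 tested of 5. Both were higher in limma (adjusted p = 0.0316 and 0.0409). These calls were lost with TPM scaling, plain totals and GC correction. They were also lost without control replicates 2 or 3 or CCL3 replicates 1 or 3. Of the 3 untested, Dcn was higher and apart, and Pdgfra and Cxcl12 overlapped. The sums were not compared under other scalings. The 8 macrophage markers came to 16422 to 28349 and 10705 to 15123 FPKM, most of it Lyz2. The part of these cells in the changes of Cd14 and Tlr8 was not tested.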

How the data were processed

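Messenger RNA was measured in 3 control and 3 CCL3 libraries of mouse bone marrow-derived macrophages. RNA was extracted with a column kit and libraries were built with a SMARTer kit, per the labels' protocols. The authors deposited 1 table of FPKM values with each gene's length in bases and position. Per the submitters' processing notes, reads were referred to mm10. The aligner, counting tool, strand setting and treatment of shared reads were not given in the sources used here. Because FPKM values are normalized, count models were not applied. Within a tolerance of 0.02, 100% of FPKM times gene length were whole multiples of a library's smallest step, which gave fragments and counting intervals (95%, exact Poisson, counting error only).

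Genes averaging 1 FPKM or more were fitted as log2(FPKM + 1) in limma 3.58.1 under R 4.3.3, with a mean-variance trend, two-sided and with Benjamini-Hochberg adjustment over all 9218 genes and a threshold of 0.05. Fold changes are on that scale, which understates the change of low genes. Ratios used Python 3.11.15, pandas 2.3.3 and scipy 1.17.1. Chi-square per degree of freedom between fragments of replicates ran from 19.6 to 89.7, so none was a repeat of another. The limma fit and the removal of a smooth trend were tested on simulated counts. Those counts held no divisor or GC difference between the groups. The recovery of fragments, the ratios and the sequence matches were not tested this way. Alternatives covered the pseudocount, filter, scaling, GC content, gene length, replicate block and each library left out. The 10 genes, the pathway lists and the markers were chosen with earlier results of these data known. Of each pathway list the up to 4 called genes with the largest change were named, with Tnf, Nfkbia, Unc93b1, Myd88 and Tlr3 always, and for Tlr8 the 3 protein-coding genes most correlated with it.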

Additional observations from a re-analysis of the deposited data

How the results depend on the processing

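Over all genes, the 2990 calls became 4493 with TPM scaling and 1152 to 3166 when 1 library was left out, and 1268 with GC correction without CCL3 replicate 2, an alternative chosen after the data were seen. The 1655 higher calls became 507 with TPM scaling, 803 with plain fragment totals, 696 to 1873 without 1 library and 625 with GC correction without CCL3 replicate 2. The 1335 lower calls became 720 with a minimum mean of 5 FPKM, 3986 with TPM scaling, 3047 with plain totals, 456 to 1293 without 1 library and 643 with GC correction without CCL3 replicate 2. The lowest of these leave-one-out counts came without control replicate 2. The split moved from 55.4% higher among the calls to 11.3% with TPM scaling and 20.9% with plain totals.

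Of the 10 genes, 2 were called (1 higher, 1 lower), 1 with no filter on the mean and 1 to 3 without 1 library. The higher count was 0 with no filter, TPM scaling or plain totals, all in limma with Tlr8 at an adjusted p of 0.0516 to 0.0826, 2 with GC correction and 0 to 1 without 1 library. The lower count was 2 with TPM scaling, plain totals or without both replicates numbered 3 (added after the data were seen), and 1 to 2 without 1 library. Signs reversed for Tlr4 (-0.43 with TPM, -0.22 with plain totals, -0.031 without control replicate 3, -0.23 without CCL3 replicate 2, -0.12 with GC correction without that library, with leave-one-out values up to 0.21), Tlr1 (-0.23 with TPM, -0.064 with plain totals), Tlr6 (-0.37, -0.17, -0.052 without control replicate 3, -0.10 without CCL3 replicate 2, up to 0.16 without 1 library) and Tlr9 (-0.30 with TPM, -0.12 with plain totals, -0.11 with GC correction, -0.30 with GC correction without CCL3 replicate 2). TPM scaling and plain totals rescale whole libraries, and there the median over all tested genes was -0.48 and -0.28, against 0.01 as deposited. The cause of the reversals was not tested. None of the 11 ratios reversed under the alternatives run for them, which were each library left out, a pseudocount and pairing. GC correction was not run for the ratios.

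With replicate number as a block, 3897 genes passed, 2205 higher and 1692 lower, and 3 of the 10 genes, 2 of them lower, with Tlr2 at an adjusted p of 0.00234. Same-numbered libraries correlated at -0.0628, 0.387 and 0.503 for replicates 1, 2 and 3, and control replicate 1 correlated best with CCL3 replicate 2 (0.413). Whether the numbers mark a pairing cannot be told from these values. Replicate 3 matched by number in both groups, while CCL3 replicate 2 correlated slightly better with control replicate 1 than with control replicate 2. Replicate 1 did not match by number. Ly96 had the fewest fragments, 12 to 52 in a library, which limits its precision most in counting terms.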
